A study of Mus musculus with 4 samples.

Results

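Genes that mark the primitive streak and the mesoderm that has just left it were followed in single cells of day 6 embryoid bodies (EBs). They were T, Eomes, Mixl1, Gsc, Lhx1, Evx1, Mesp1, Mesp2, Tbx6 and Msgn1, chosen by symbol as 10 of the 25209 genes listed, and all 10 were found in the 4 libraries. EBs are the aggregates that mouse embryonic stem cells (ESCs) form when they differentiate without added directing signals. V6.5 ESCs kept in the naive state with 2i and LIF were compared as wild type (WT) with LSD1 KO ESCs of the same line, in which CRISPR/Cas9 had taken out the promoter and exon 1 of Kdm1a (Lsd1), the gene of a histone demethylase. Both genotypes were grown for 6 days in hanging drops of serum medium, with 2i and LIF withdrawn, and 2 biological replicates per genotype were captured as 1 droplet library each. Mutant lines came from picked colonies, and the labels do not say which clone a library was made from, so genotype and clone cannot be told apart.

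The primitive streak is the strip of the gastrulating embryo through which epiblast cells leave to become mesoderm and endoderm. Nodal, Wnt, Bmp and Fgf signals induce T, Eomes and Mixl1 there, Gsc and Lhx1 are used at its anterior end, and Mesp1, Mesp2, Tbx6 and Msgn1 mark the mesoderm that follows. In ESC aggregates the same genes come on briefly while cells leave pluripotency, and T stays on in the node and the notochord.

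T, Eomes and Tbx6 are themselves T-box factors, whose shared DNA half-site has the letters ACACCT, or AGGTGT on the other strand. These letters were sought in the 300 bases around the start of each gene (250 before and 50 after), in the RefSeq promoter table of GRCm38.p6, which held 9 of the 10 genes and not Mixl1. Of those 9, 4 held a match, while 15.7% of the 27025 genes of the table and 13.7% of its 32851 windows did. The 5 matches are printed 5′ to 3′ along the gene's own strand with 12 bases to either side and the half-site in capitals, to show where in these promoters the half-site lies. They lay at chr17:8434397-8434426 (T, plus strand, 14 bases before the start), chr6:52313448-52313477 (Evx1, plus strand, 38 before), chr7:79793806-79793835 (Mesp1, minus strand, 233 before), chr7:79793566-79793595 (Mesp1, 7 after) and chr7:79810744-79810773 (Mesp2, plus strand, 29 after).
T: gtgcagggacccAGGTGTaatctttgggct
Evx1: cgagcgaggcccACACCTggcgcatcactg
Mesp1 far site: cctaataaatgaAGGTGTaccctaagccta
Mesp1 near site: ggggcccgcttcACACCTagggctcaggat
Mesp2: gggtcagaatccACACCTctgcaaatgggc
The matches of T and Evx1 overlap an E-box that Snail and Zeb factors are known to bind (CAGGTG, which reads CACCTG from the other strand), and the other 3 do not. A match is a run of letters, and no binding was measured here.

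Of each library 3045 to 6828 barcodes had at least 500 unique molecular identifiers (UMIs, 1 per captured transcript) and 500 genes and were kept as cells, out of 72285943 to 75406512 UMIs per library. LSD1 KO replicate 2 had the fewest cells and the deepest, with a median of 20304 UMIs per cell against 9211 to 11698 in the others. Levels are therefore given as CPM, a gene's count scaled to 1e6 kept UMIs of its library, and shares of cells are given after each cell was thinned to 5000 UMIs, which left 3067 and 5667 WT and 4363 and 2176 LSD1 KO cells. Kdm1a had 217 and 229 CPM in the WT libraries against 1.16 and 0.841 CPM in those of LSD1 KO (log2 fold change −7.92 with a standard error, SE, of 0.18 and an adjusted p = 0.000131 by edgeR's quasi-likelihood test with Benjamini-Hochberg adjustment, the test used throughout). The libraries read the 3′ end, outside the deleted promoter and exon 1, and the source of the remaining UMIs was not tested. Libraries shared 3 to 15 barcodes per pair, at most 0.263% of the smaller one. In summed counts, more cells and more RNA per cell cannot be told apart.

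LSD1 KO EBs held more T, Eomes and Mixl1 RNA than WT EBs, while the other genes of the set did not pass the test. Of the 9 genes that could be tested, 3 rose in LSD1 KO and 0 fell at an adjusted p under 0.05, beside 22.6% of all 16953 genes tested that rose and 21.6% that fell. With this many genes called in the whole table, 3 of 9 is close to the background. The median log2 fold change was 0.63 over the 9 genes and near 0 over all genes (−0.00088). Both LSD1 KO libraries lay above both WT libraries for 4 of the 10 (T, Eomes, Mixl1 and Msgn1), as they did for 47.1% of all genes. For the other 6 genes LSD1 KO replicate 1 was above and replicate 2 below both WT libraries.

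**Figure D1:**
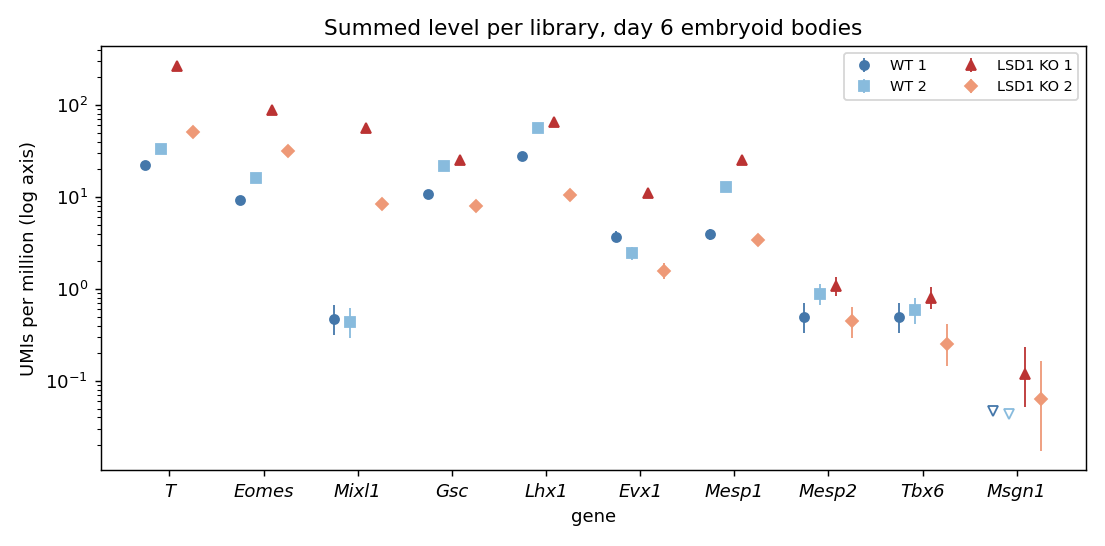
Summed level of each streak gene in CPM on a log axis, 1 point per library, with 95% Poisson intervals that cover counting error only; open triangles mark the level that 3 UMIs would give where 0 were counted. T, Eomes and Mixl1 lie higher in both LSD1 KO libraries than in both WT libraries, and LSD1 KO replicate 1 (triangles) lies above replicate 2 (diamonds) for every gene.

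T (Brachyury, chr17:8627288-8635361 of mm9, plus strand) is the T-box factor that streak cells need to move out and that later defines the notochord. It stood at 22.4 and 33.4 CPM in WT replicates 1 and 2, and at 267 and 51.1 CPM in LSD1 KO replicates 1 and 2. Both mutant libraries were above both WT libraries, replicate 1 far more so than replicate 2. LSD1 KO exceeded WT by 2.36 on the log2 scale (SE 0.74, adjusted p = 0.0487 by edgeR), close to the threshold, and T was no longer called without WT replicate 1 (adjusted p = 0.178), WT replicate 2 (0.103) or LSD1 KO replicate 1 (0.0588, with a log2 fold change of 0.75). T UMIs were seen in 5.15% and 8.54% of WT cells and in 46.5% and 11.8% of LSD1 KO cells.

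Eomes (chr9:118387330-118395250, plus strand) is the T-box factor that precedes T in the anterior streak and is needed for endoderm and early mesoderm. The 2 WT libraries had 9.22 and 16.2 CPM of it, and the 2 LSD1 KO libraries 88.3 and 31.7 CPM. The genotypes did not overlap. The rise was 2.09 on the log2 scale (SE 0.53, adjusted p = 0.0256 by edgeR) and 1.72 without WT replicate 1, where the call was lost (adjusted p = 0.103). It was 1.19 without LSD1 KO replicate 1. Cells with a UMI made up 3.72% and 6.49% of WT and 24.7% and 10.8% of LSD1 KO cells. Eomes also marks trophoblast. Of 6 trophoblast genes tested from a list of 7, 0 rose and 2 fell (Krt7, log2 fold change −4.18, and Gata3, −2.92), beside 22.6% and 21.6% of all genes. In LSD1 KO cells with UMIs of 2 or more streak genes, Cdx2 was 4.24 and 3.84 times its level in cells with none (5 CPM added to both). Tfap2c was 2.08 and 1.91 times and Gata3 1.85 and 1.75 times. Krt7, Esrrb, Ascl2 and Elf5 were not higher in both libraries. A trophoblast source of Eomes was not tested.

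Mixl1 (chr1:182623174-182627165, minus strand), a paired-type homeobox gene of the streak, had the widest gap between genotypes of the set. It was at 0.473 and 0.437 CPM in WT, from 30 UMIs in each library, and at 56.8 and 8.46 CPM in LSD1 KO, from 3806 and 533 UMIs. WT EBs were thus close to empty of Mixl1, and both LSD1 KO libraries were above both WT libraries, with replicate 1 at 6.72 times the level of replicate 2. On the log2 scale the rise was 6.02 (SE 1.05, adjusted p = 0.00787 by edgeR), and 4.09 without LSD1 KO replicate 1. A Mixl1 UMI was seen in 0.391% and 0.194% of WT cells and in 13.7% and 2.16% of LSD1 KO cells.

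Gsc and Lhx1, homeobox genes of the organizer and the anterior streak, were already plain in WT EBs. Gsc (chr12:105709419-105711537, minus strand) was at 10.7 and 21.5 CPM in WT and at 25.1 and 8.01 CPM in LSD1 KO, and Lhx1 (chr11:84331479-84338923, minus strand) at 27.7 and 56.9 CPM in WT and at 65.8 and 10.6 CPM in LSD1 KO. For both genes LSD1 KO replicate 1 was the highest library and replicate 2 the lowest. Neither passed the test (log2 fold change −0.11, SE 0.58, adjusted p = 0.892 for Gsc and −0.30, SE 0.81, adjusted p = 0.781 for Lhx1, by edgeR). Lhx1 was called lower in LSD1 KO when replicate 1 was left out (log2 fold change −2.14, adjusted p = 0.0104).

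The spread of Lhx1 UMIs over cells also differed. A UMI was found in 11.3% and 17.7% of WT cells but in 10.5% and 2.21% of LSD1 KO cells. A cell that had Lhx1 held a mean of 1.38 and 1.66 UMIs in WT and 3.27 and 2.50 in LSD1 KO, at equal depth. LSD1 KO replicate 2 thus had the fewest Lhx1 cells, replicate 1 had a share close to that of WT replicate 1, and Lhx1 cells of both held more UMIs each than those of WT. With 2 libraries against 2, the smallest p an exact permutation test can give is 0.333, so shares and means per cell could not pass a test. Eomes (1.18 and 1.31 in WT, 1.85 and 1.46 in LSD1 KO) and Mixl1 (1.08 and 1.09 against 2.14 and 1.70) likewise had more UMIs per positive cell in both LSD1 KO libraries. T (2.26 and 2.28 against 2.86 and 2.18) and Gsc (1.35 and 1.47 against 1.44 and 1.22) overlapped.

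Mesp1 and Evx1 split the LSD1 KO replicates in the same way. Mesp1 (chr7:86937127-86938674, minus strand), a basic helix-loop-helix factor at the root of cardiac and cranial mesoderm, was at 3.91 and 12.8 CPM in WT and at 25.6 and 3.38 CPM in LSD1 KO. Evx1 (chr6:52263492-52268372, plus strand), a posterior streak homeobox gene, was at 3.71 and 2.43 CPM in WT and at 11.1 and 1.59 CPM in LSD1 KO. In each case LSD1 KO replicate 1 was above and replicate 2 below every WT library, and neither gene passed the test (Mesp1 log2 fold change 0.63, SE 0.96, adjusted p = 0.619, and Evx1 0.91, SE 0.81, adjusted p = 0.395, by edgeR).

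Mesp2 (chr7:86955613-86958317, plus strand), which sets borders between somites, and Tbx6 (chr7:133924997-133929074, plus strand), which keeps presomitic cells from becoming neural, were near the detection limit. Mesp2 was at 0.489 and 0.875 CPM in WT and at 1.07 and 0.444 CPM in LSD1 KO, and Tbx6 at 0.489 and 0.583 CPM in WT and at 0.806 and 0.254 CPM in LSD1 KO. The genotypes overlapped for both, with log2 fold changes of 0.01 and −0.15. Mesp1 and Mesp2 are related genes that lie 16.938 kb apart on chromosome 7, and reads that fit both could be lost or split in counting.

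Msgn1 (chr12:11215188-11215754, minus strand), a master gene of presomitic mesoderm, had 0 UMIs in either WT library and 8 and 4 UMIs in the LSD1 KO libraries. The 0 of 3067 and 0 of 5667 thinned WT cells allow a share of up to 0.0978% and 0.0529% (3 cells, counting error only). It was too low for the filter on counts and entered no main test. When the filter was lifted it was called higher (adjusted p = 0.0342 by edgeR), on those 12 UMIs.

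The 2 LSD1 KO replicates differed from each other in the same direction for every gene of the set. All 10 genes were higher in replicate 1 than in replicate 2, while 52.4% of all genes tested were. Of the 9 tested genes, 5 were at least 4 times higher in replicate 1, a gap that 0.737% of all genes (125 of 16953) reached in that direction. They were Mesp1 (7.56 times, 95% interval 6.55 to 8.76), Evx1 (6.99, 5.67 to 8.70), Mixl1 (6.72, 6.13 to 7.37), Lhx1 (6.23, 5.74 to 6.77) and T (5.23, 5.04 to 5.43). Gsc (3.14 times), Eomes (2.78), Tbx6 (3.17) and Mesp2 (2.42) lay below that gap. With 1 library against 1 there is no test, and the intervals cover counting error only. Between the WT replicates, 7 of the 9 genes were higher in replicate 2, by at most 3.27 times (Mesp1), and only Evx1 (1.52 times) and Mixl1 (1.08 times) were higher in replicate 1.

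The same split was seen in the number of streak genes that single cells carried. UMIs of 2 or more of the 10 genes were found in 132 of 3067 cells (4.30%) of WT replicate 1, 512 of 5667 (9.03%) of WT replicate 2, 1178 of 4363 (27.0%) of LSD1 KO replicate 1 and 142 of 2176 (6.53%) of LSD1 KO replicate 2. The mean was 6.67% ± 3.35 (SD, n = 2) in WT and 16.8% ± 14.5 (SD, n = 2) in LSD1 KO, and the genotypes overlapped, with an exact permutation p of 0.667, 2-sided. The LSD1 KO mean rested on replicate 1. Without it the difference of 10.1 percentage points was −0.144. The share in replicate 1 was 4.14 times that in replicate 2, and 2.37 times with no thinning.

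At higher counts per cell the genotypes came apart. Cells with UMIs of at least 4 of the genes were 6 (0.196%) and 14 (0.247%) of the WT cells but 381 (8.73%) and 30 (1.38%) of the LSD1 KO cells. At least 5 were found in 2 and 3 WT cells, and in 230 and 10 LSD1 KO cells. Both LSD1 KO libraries were above both WT libraries at 3 or more genes, where the intervals of WT replicate 2 and LSD1 KO replicate 2 still overlapped, while at 2 or more and at 1 or more they were not.

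**Figure D2:**
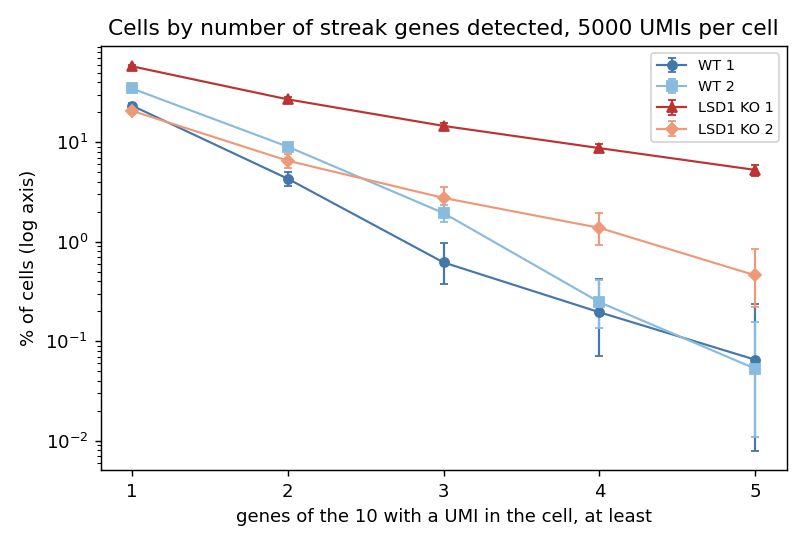
Share of cells, on a log axis, with a UMI of at least 1 to 5 of the 10 streak genes, in cells thinned to 5000 UMIs, with exact 95% binomial intervals. The LSD1 KO lines fall less steeply than the WT lines, so LSD1 KO replicate 2 starts lowest at 1 gene (20.7%) and lies above both WT libraries from 3 genes on (2.76% against 0.619% and 1.94%).

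Which genes shared cells also differed between the genotypes. For each pair, the number of cells with UMIs of both was divided by the number that the product of the 2 shares would give, so that a value above 1 means more joint cells. In WT, T and Eomes were found together less often than the product gives, by few cells in replicate 1. Eomes was in 4 of 158 T cells in replicate 1 and 18 of 484 in replicate 2, where the product gives 5.87 and 31.4 cells (0.681 and 0.573 times). No counting interval was computed for these ratios. In LSD1 KO, 733 of 2029 and 87 of 256 T cells had Eomes, 1.46 and 3.15 times the product. T and Lhx1 were at or below the product in WT (1.01 and 0.653 times) and above it in LSD1 KO (1.56 and 5.14 times). Eomes and Lhx1, by contrast, were joined in every library (3.65 and 2.87 times in WT, 2.80 and 5.79 times in LSD1 KO).

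Most Mixl1 cells of LSD1 KO had T, and most had Eomes, though cells with all of these genes at once were not counted. Of 597 and 47 Mixl1 cells in replicates 1 and 2, 82.1% and 70.2% also had T, 65.2% and 59.6% had Eomes, and 47.7% and 42.6% had Lhx1. The 12 and 11 Mixl1 cells of WT had T in 0 and 1 of them, and had Eomes in 6 and 7. Over all pairs whose genes were each seen in at least 30 cells, 21 of 21 in LSD1 KO replicate 1 and 10 of 10 in replicate 2 were above the product, with median ratios of 2.83 and 5.65. In WT 12 of 15 and 10 of 15 were, with medians of 1.81 and 1.55. Pairs that share a gene are not independent, cells that hold 2 captured cells were not removed, and a common gene such as T in LSD1 KO replicate 1 limits how far the ratio can go.

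**Figure D3:**
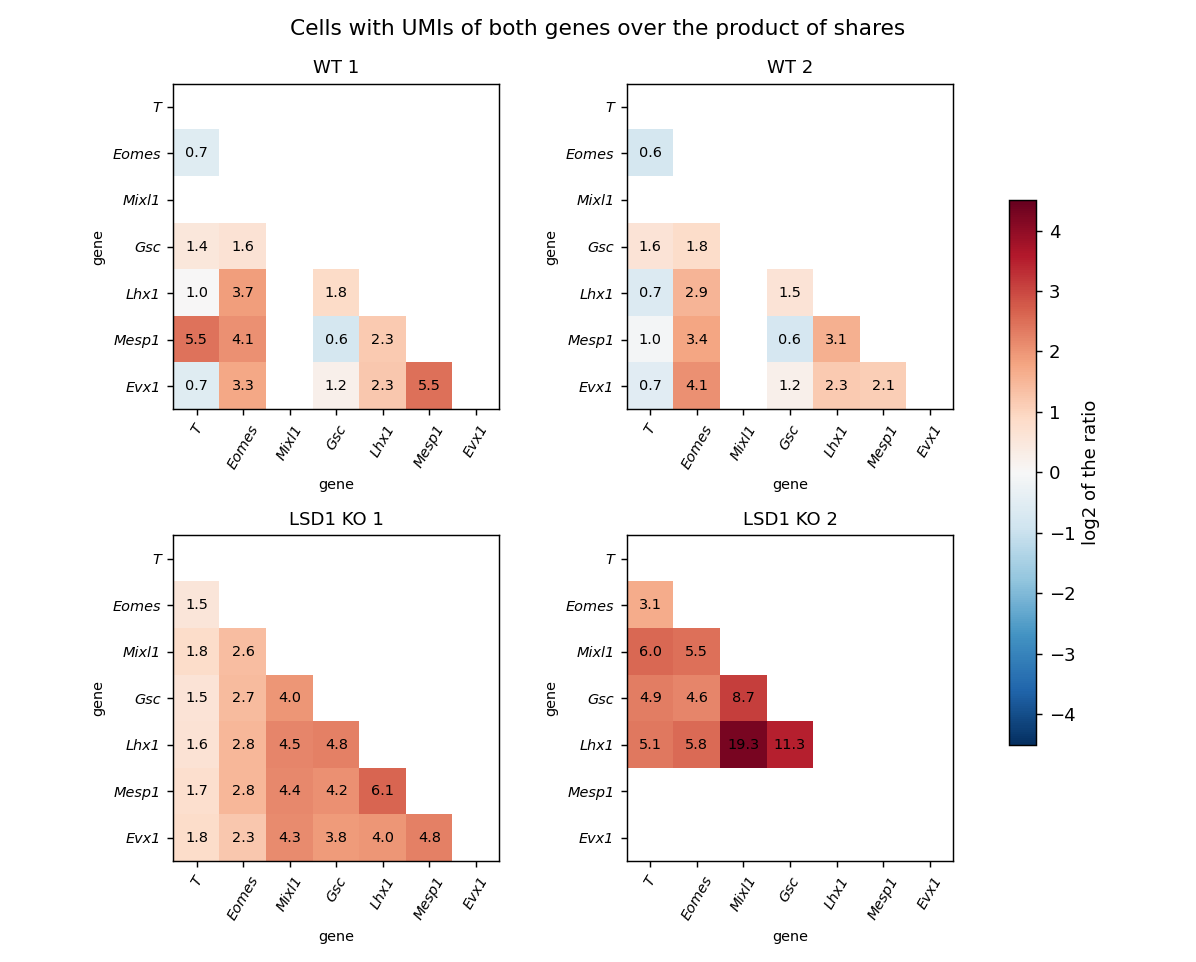
Number of cells with UMIs of both genes over the number given by the product of their shares, per library; the printed value is the ratio and the colour its log2, red above 1 and blue below. Squares are left white where a gene was seen in fewer than 30 cells. The square for T with Eomes is blue in both WT panels (0.7 and 0.6) and red in both LSD1 KO panels (1.5 and 3.1).

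The genes found with T in the same cells differed as well. In WT, cells with T held 159 and 168 CPM of Shh in replicates 1 and 2 against 5.46 and 9.37 CPM in cells without T, together with Nog (58.5 and 58.3 against 6.08 and 5.54 CPM) and Chrd (32.0 and 27.6 against 3.09 and 2.68 CPM). Shh, Nog and Chrd are secreted signals of the node and the notochord. In LSD1 KO, whole EBs held almost no Shh (0.030 and 0.016 CPM against 12.8 and 22.1 in WT). There, T cells were set apart by Rspo3 (127 and 73.5 CPM against 23.0 and 6.33 in cells without T), Fgf8 (241 and 231 against 77.5 and 44.7 CPM) and Sp5 (115 and 70.3 against 38.0 and 6.95 CPM). Rspo3 and Sp5 belong to the Wnt pathway and Fgf8 is a streak signal. Rspo3 was high in WT T cells too (237 and 242 against 43.2 and 46.2 CPM). Map2 and Prrx1 were the other 2 of the 6 leading partners in WT, and Mixl1, Mesp1 and Cdx2 the other 3 in LSD1 KO. These partners were taken, after their values were seen, as the leading genes among the lists below.

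Cells with 2 or more streak genes were led, in both LSD1 KO libraries, by Rspo3 (13.4 and 11.3 times the level in cells with none, 5 CPM added to both), Tiam2, Pcdh7, Fgf8 (6.26 and 8.25 times), Fst, Sp5 (5.03 and 11.5 times), Upp1, Adamts9, Lsamp and Sh3pxd2a. In WT they were led by Cer1 (5.11 and 5.27 times), an inhibitor of Nodal and Bmp made by anterior endoderm, and by Samd3, Ptgds, Tdgf1, Fgf8, Fgf5, Cntnap2, Sgk1, Atp8a1 and Sfrp1. Fgf8 stood in both lists, and the other 9 genes of each did not appear in the other. Each list was cut by rank and at 50 CPM, so absence from it does not mean no rise. In WT, Sp5 was 3.05 and 3.02 times its level in cells with none, and Rspo3 2.83 and 2.75 times. Sp5 was under the floor there, at 24.2 and 24.7 CPM. In LSD1 KO, Fgf5 was 2.21 and 2.16 times, Cer1 1.80 and 1.83 times and Tdgf1 1.77 and 1.92 times. The remaining genes are not given for the other genotype. The cells were picked by the streak genes and not by the listed genes.

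Among the genes of the set itself, these cells held T in 87.6% and 85.2% of cases in LSD1 KO and in 26.5% and 25.8% in WT. Lhx1 took the reverse order, at 36.1% and 28.2% in LSD1 KO and 76.5% and 77.9% in WT. Eomes was at 72.5% and 74.6% in LSD1 KO and at 41.7% and 44.7% in WT, and Gsc at 30.9% and 33.1% against 33.3% and 36.1%. The shares with T, Eomes and Gsc were close between replicates of a genotype, also in the 2 LSD1 KO libraries whose numbers of such cells differed. The cells were picked by these same genes, so the shares partly follow from how common each gene was. Over all cells, Lhx1 was the most common of the set in WT (11.3% and 17.7%) and T in LSD1 KO (46.5% and 11.8%). Mixl1 (48.3% and 28.9%) and Mesp1 (19.6% and 8.5%) were more frequent in replicate 1 of LSD1 KO. The WT replicates parted in Evx1 (17.4% and 7.23%), Mesp1 (14.4% and 26.6%) and Mixl1 (7.58% and 1.56%).

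To see which kinds of cell carried the genes, cells were gated by sets of 8 marker genes, none of them a streak gene, with at least 3 of the 8 holding a UMI. More cells stayed ungated (64.6% and 70.6% of WT, 52.4% and 45.5% of LSD1 KO) than entered any single gate. The heart and lateral mesoderm gate took 15.4% and 11.3% of WT cells and 0 LSD1 KO cells in either library, and the endoderm gate took 13.7% and 8.45% of WT cells and 1 cell in each LSD1 KO library. The pluripotent gate (12.3% and 24.4%) and the ectoderm and neuron gate (31.9% and 25.8%) were the main ones in LSD1 KO. The latter was led in LSD1 KO by its markers Nefm, Nes, Nefl and Tubb3 but also by Tagln, Actc1 and Cnn1, genes of contractile cells. Most cells with 2 or more streak genes were ungated (78.8% and 78.1% in WT, 70.2% and 66.9% in LSD1 KO).

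In WT, T was lowest, among gates of at least 30 cells, in the heart and lateral mesoderm gate, with a UMI in 0.212% and 0.623% of cells, and at 7.11% and 10.6% in ungated cells. Median depths were 13239 and 9042 UMIs before thinning in the heart gate and 16906 and 10331 in ungated cells. T was at 1.33% and 7.14% (1 of 75 and 3 of 42 cells) in the endothelial gate, which should also lack it, and at 1.43% and 4.38% in the endoderm gate. The ungated shares lay within the counting intervals of the small endothelial gates (up to 7.21% and 19.5%), so background in WT is not tightly bounded. Lhx1 was most frequent in the paraxial mesenchyme gate (29.8% and 33.3%) and was also found in the endoderm gate (10.7% and 21.1%). Eomes was at 10.6% and 10.9% in the paraxial gate and at 5.49% and 10.0% in the endoderm gate.

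In LSD1 KO, T was found in every large gate. It was in 49.2% and 13.5% of cells of the ectoderm and neuron gate, in 24.2% and 4.71% of the pluripotent gate and in 51.2% and 14.8% of ungated cells. Mixl1 and Lhx1 were less even across these cells. Mixl1 was in 20.4% and 3.24% of ungated cells but in 6.61% and 1.60% of the ectoderm and neuron gate, and Lhx1 in 16.1% and 3.64% against 4.60% and 1.60%. The shares of cells with T, Mixl1 and Lhx1 therefore did not keep a fixed ratio from gate to gate. Shares do not scale with RNA where a gene is in many cells, so they do not give a ratio of RNA. The ectoderm and neuron gate, whose markers include genes of neurons, thus had T nearly as often as ungated cells. This was not particular to LSD1 KO. In WT replicate 1, T was in 3 of 30 cells of this gate (10.0%), against 7.11% of ungated cells. With 2 of 8 markers, the gate held 65.8 and 50.4 CPM of T in WT, against 22.4 and 33.4 CPM in whole WT EBs. Free RNA, read from barcodes under 100 UMIs, held T at 275 and 61.5 CPM in LSD1 KO, much as in the cells (267 and 51.1 CPM). The part of this RNA in the shares and in the joint cells was not tested.

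**Figure D4:**
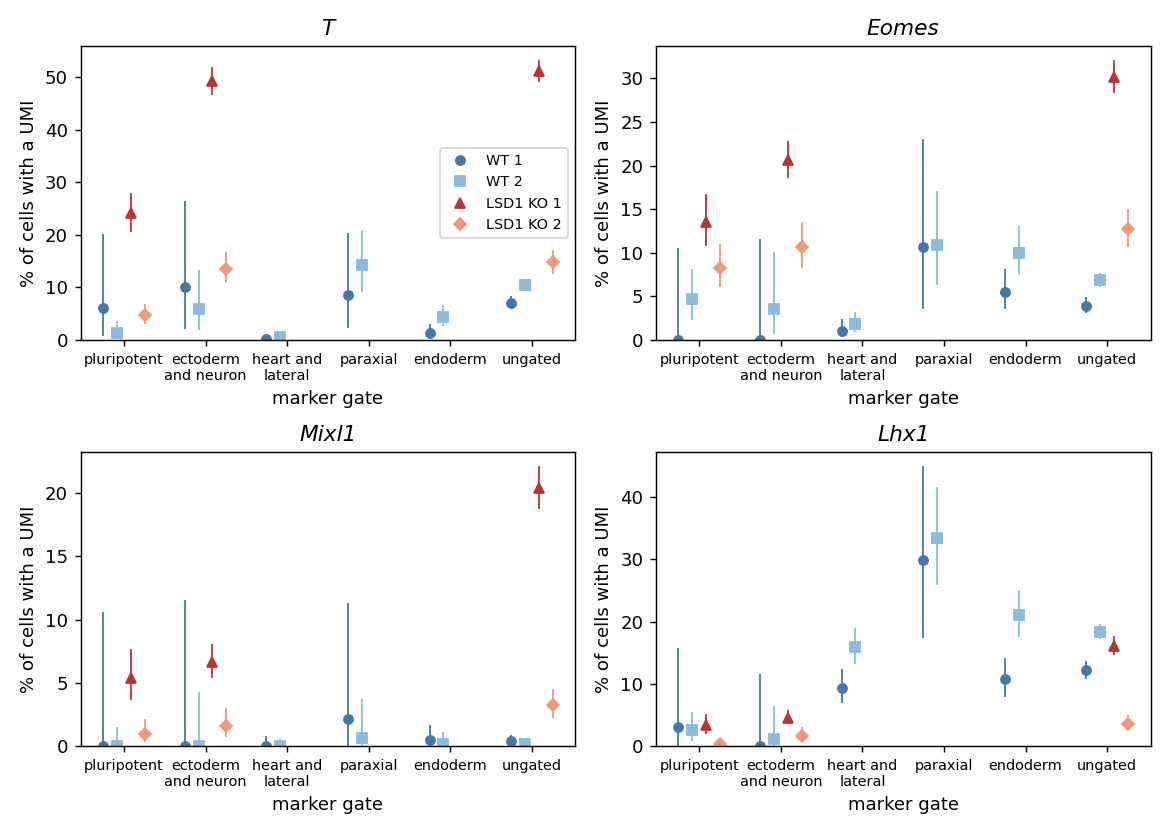
Share of cells with a UMI of T, Eomes, Mixl1 or Lhx1 in each marker gate, 1 point per library, with exact 95% binomial intervals, in cells thinned to 5000 UMIs; gates with under 30 cells in a library are left out. T lies higher in LSD1 KO replicate 1 than in replicate 2 in each of the 3 gates that both fill, and Lhx1 in WT is highest in the paraxial mesenchyme gate (29.8% and 33.3%).

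The gap between the LSD1 KO replicates was present inside the gates. T was 3.64 times as frequent in replicate 1 in the ectoderm and neuron gate, 5.13 times in the pluripotent gate and 3.47 times in ungated cells. Cells with 2 or more streak genes were 3.17, 5.56 and 3.77 times as frequent there. With its gates weighted to the makeup of replicate 1, replicate 2 had a share of such cells of 7.36%, against 6.53% measured and 27.0% in replicate 1. Most of these cells were ungated (70.2% and 66.9%), and ungated cells are not 1 kind of cell. The weighting therefore did not hold the kinds of cell fixed, and the cause of the gap was not tested.

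No gate held the 50 cells per library that a test asked for, but with 2 of 8 markers 2 gates did. In the ectoderm and neuron gate, 2 of 7 genes tested rose and 0 fell, against 13.2% of 14475 genes that rose and 11.5% that fell. Eomes was at 7.11 and 5.12 CPM in WT and at 71.8 and 33.5 CPM in LSD1 KO (log2 fold change 3.07, SE 0.47, adjusted p = 0.00563 by edgeR). Mixl1 was at 1.07 and 0 CPM in WT and at 38.6 and 7.34 CPM in LSD1 KO (5.63, SE 1.49, adjusted p = 0.0348). The genotypes did not overlap for either gene. T (65.8 and 50.4 CPM in WT, 287.8 and 59.4 in LSD1 KO) was not called in this gate (adjusted p = 0.134). Map2, a marker of the gate, was itself higher in WT cells with T (79.5 and 60.8 CPM against 4.71 and 6.60 without). Its part in the T levels of this gate was not tested.

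In the pluripotent gate, 1 of 7 genes rose and 0 fell, against 10.1% of 13499 genes that rose and 8.96% that fell. It was Eomes again, at 4.88 and 10.6 CPM in WT and at 68.0 and 23.1 CPM in LSD1 KO (log2 fold change 2.24, SE 0.64, adjusted p = 0.0450 by edgeR). Mixl1 was not called (4.65, adjusted p = 0.0933). Both gate results were lost when either WT library was left out.

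Most listed genes of the Nodal pathway rose in LSD1 KO while Bmp genes fell, and most genes of endoderm, node and cardiac mesoderm fell. Of 18 signal and target genes 11 rose and 3 fell (median log2 fold change 1.94). Lefty1 (5.94), Tdgf1 (4.93), Lefty2 (4.86) and Nodal (4.11) rose, genes of the Nodal pathway, as did Wnt3 (2.20), Wnt8a (3.57) and Fgf8 (1.67), and Bmp2 (−3.63), Bmp4 (−2.07) and Wnt5a (−2.08) fell. Foxh1, also of the Nodal pathway, was not called (−0.56). The rise was not confined to cells with streak genes. In LSD1 KO, cells with 2 or more held 0.84 and 1.05 times the Lefty1 of cells with none. For Nodal this was 1.16 and 1.30 times, for Lefty2 1.74 and 1.47, and for Tdgf1 1.77 and 1.92. Nodal was at 2.51 and 2.87 CPM in WT and at 56.7 and 45.6 CPM in LSD1 KO, so that, unlike the streak genes, the mutant replicates were close. Sp5, a direct Wnt target, did part the replicates (6.63 and 7.90 CPM for WT against 73.5 and 14.7 for LSD1 KO). Axin2 (31.9 and 16.8 CPM in LSD1 KO), Lef1 (114 and 81.3) and Nkd1 (16.6 and 9.35), of the same list, parted them less. None of these was called.

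Of 11 tested genes of definitive endoderm and node, 0 rose and 9 fell (median −2.73), with Shh (−9.59), Sox17 (−5.38), Cer1 (−4.60) and Foxa2 (−4.04) the furthest. Of 12 genes of lateral and cardiac mesoderm, 0 rose and 11 fell (median −3.44), among them Hand2 (−7.06), Hand1 (−6.42), Tbx20 (−6.08) and Foxf1 (−4.87). Gata6 fell as well (−2.72) but was not absent from LSD1 KO. It was at 65.2 and 29.2 CPM in LSD1 KO cells with 2 or more streak genes, against 1.25 and 1.02 CPM in cells with none. Hand2 (0.34 and 0 CPM) and Tbx20 (2.26 and 0.70 CPM) were low in the same cells with 2 or more. Of 9 posterior genes 5 rose and 1 fell (median 1.82). Cdx1 (7.86), Nkx1-2 (3.16), Cdx4 (2.83) and Hoxb1 (2.71) rose, from WT levels under 1 CPM, while Cyp26a1, which degrades retinoic acid, fell (−2.25). Nkx1-2 (0.537 and 0.238 CPM) and Cdx4 (0.343 and 0.270 CPM) were under 1 CPM in LSD1 KO too. Cdx1 (4.01 and 0.777 CPM) and Hoxb1 (7.24 and 1.52 CPM) parted the LSD1 KO replicates. Of 10 tested presomitic and paraxial genes 2 rose (Tcf15, 2.22, and Dll3, 0.61) and 2 fell (Foxc2, −5.07, and Foxc1, −0.97).

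In whole EBs, the remaining lists moved less or in both directions. Of 11 genes of epithelial-mesenchymal transition and adhesion 1 rose (Zeb1, 0.68) and 4 fell (Cdh11, −2.65, Snai2, −2.24, Cdh1, −0.998, and Zeb2, −0.41), with a median of −0.15. Within LSD1 KO, cells with 2 or more streak genes held 5.12 and 2.41 times the Cdh11 of cells with none. The same ratio was 5.02 and 2.98 for Fn1, 4.59 and 1.81 for Snai1, 3.06 and 2.14 for Cdh2 and 0.56 and 0.47 for Cdh1. The other genes of this list lay between 0.92 and 1.45 times. Of 7 other T-box genes tested, 1 rose (Tbx4, 2.67) and 3 fell (Tbx2, −4.02, Tbx1, −3.66, and Tbx3, −3.13). Of 3 genes of intermediate mesoderm, where Lhx1 is also used, Wt1 rose (4.14) and Osr1 (−6.32) and Pax2 (−1.10) fell. Of 5 genes of spinal interneurons, which use Evx1 and Lhx1 too, Gad1 rose (2.12) and Pax2 fell. The values of genes said to rise or fall are log2 fold changes past an adjusted p of 0.05 by edgeR.

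**Figure D5:**
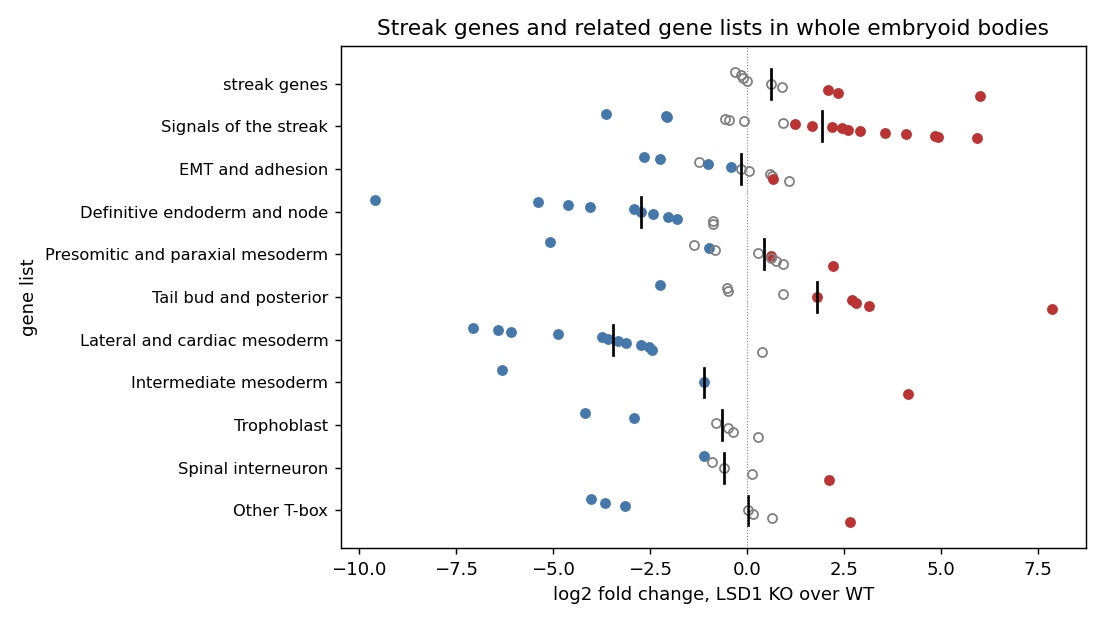
Log2 fold change of LSD1 KO over WT in whole EBs for the 9 tested streak genes and the genes of 10 related lists; red points rose and blue points fell at an adjusted p under 0.05 by edgeR, open points were not called, and the bar marks the median. Streak signals lie mostly to the right (median 1.94) and endoderm, node and cardiac genes to the left (medians −2.73 and −3.44).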

How the data were processed

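The deposited files hold UMI counts of 3′ droplet libraries, for each gene in every barcode, neither filtered nor pooled. The authors made them with Cell Ranger 7.1.0 on mm9, according to the submitters' processing notes, which also list Seurat 4.3.0. A barcode was a cell from 500 UMIs and 500 genes on, and a gene was used if 10 such cells or more had it. The tables list 0 mitochondrial genes, and doublets were not removed. The genes of the set, the related lists, the gates and the tests were chosen with earlier results of these data known.

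Counts of a library's cells were added up, filtered with filterByExpr, scaled with TMM factors and tested with edgeR 4.0.16 in R 4.3.3 (Benjamini-Hochberg over all genes). Printed CPM use plain totals. Replicates are biological by the paper, and p-values measure the spread between these libraries. The steps were tested on simulated counts. Alternatives used library totals, median-of-ratios factors, DESeq2 1.42.0, no count filter, stricter cells, no cells of the top 5% by UMIs, a replicate block or each library left out, and, for shares, other thinning, seeds and minimum numbers of genes. A cell took the gate with the most of 8 markers holding a UMI, and ties were ambiguous. Intervals are exact at 95% (binomial or Poisson) and cover counting error only. Named genes were the 10 of the set, Kdm1a, up to 4 called genes per list with the largest change and the 10 leading genes of cells with 2 or more of the set (at least 50 CPM there in both replicates). Wnt3, Wnt8a, Fgf8, Sp5, Axin2, Lef1, Nkd1, Bmp4, Wnt5a, Foxh1 and Zeb2 were named after their values were seen. So were Cdx2, Tfap2c, Esrrb, Ascl2, Elf5, Gata6, Snai1, Cdh2, Fn1 and the partners of T (at least 10 CPM, up to 6 listed). Gene positions are those of GENCODE M1 on mm9.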

Additional observations from a re-analysis of the deposited data

Results flagged for a closer look

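T and Mixl1 also appeared in data outside the comparisons, in the free RNA of barcodes with under 100 UMIs, above the WT level in both LSD1 KO libraries. T was at 37.6 and 33.5 CPM there in WT and at 275 and 61.5 CPM in LSD1 KO, with a mean of 168 CPM in LSD1 KO. Mixl1 was at 0.413 and 0 CPM in WT, where 0 UMIs allow up to 0.739 CPM, and at 36.6 and 6.43 CPM in LSD1 KO, with a mean of 21.5 CPM. The part of this RNA in the shares of cells was not tested.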

How the results depend on the processing

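The 3 genes called in whole EBs, all higher, were also 3 with library totals, median-of-ratios factors, stricter cells or no top 5% of cells, 2 with DESeq2 (T lost, adjusted p = 0.0520) and 4 with no count filter. Library totals turned the split over all genes from 3839 higher and 3661 lower into 4839 and 2583 and the median log2 fold change of all genes into 0.13. Leaving out 1 library gave 1 to 4 higher and 0 to 1 lower. With the replicate block 1 gene was called, Mixl1, and T (adjusted p = 0.106) and Eomes (0.0528) were lost, while gate counts became 4 (ectoderm and neuron) and 3 (pluripotent). The numbers pair the samples only by name, with a correlation of deviations of 0.193 over 16953 genes. Leaving out 1 library gave 0 to 6 and 0 to 5 in these gates, lower calls staying at 0. With 4 of 8 markers no gate could be tested.

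Log2 fold changes that reversed, none of them called, were 0.042 for Gsc with library totals, −0.14 for Mesp2 without the top 5% of cells and −0.031 with the replicate block. Without 1 library they ranged from −1.20 to 0.44 for Tbx6, −1.14 to 0.55 for Gsc, −2.14 to 0.48 for Lhx1, −1.06 to 1.72 for Evx1, −1.45 to 1.79 for Mesp1 and −0.75 to 0.55 for Mesp2. Each low end is without LSD1 KO replicate 1 (Lhx1 called lower) and 1.72 is without replicate 2 (Evx1 called, adjusted p = 0.00405). The difference in cells with 2 or more genes ranged from −0.144 to 20.3 points without 1 library and from 6.64 to 11.2 otherwise. The ratio between the LSD1 KO replicates was 5.0 at 2000 UMIs per cell, 2.37 with no thinning, 5.29 for 3 or more genes and 2.80 for 1 or more. The cause was not tested.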
